A study of Mus musculus with 10 samples.

Results

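The genes described here are the solute carrier (Slc) transporters selected on their expression level, as those well expressed in at least 1 of 5 immune cell populations of the mouse mammary gland. A gene was included if its symbol began with Slc and a digit and if its mean level reached 30 CPM (counts scaled to a library total of 1000000) in at least 1 population. Of 381 Slc genes in the count table, 112 met this rule, 261 stayed under the level in every population and 8 carriers of glucose, lactate, iron or heme were left out by name. The levels themselves chose the genes, so their levels are a description without a test, and a gene that passed through a single high population had to differ between populations. The libraries came from ductal macrophages, stromal macrophages, CD11b-CD103+, CD11b-CD103- and CD11b+ dendritic cells, taken by cell sorting from the mammary gland of virgin adult C57BL/6 females, with no treatment or engineered allele named for any group. Each population had 2 libraries, which the series calls biological replicates without saying whether each was 1 mouse or a pool, so p-values measure only the spread between these libraries. CD103+ and CD103- below stand for both CD11b- dendritic cell groups.

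Solute carriers are membrane proteins that move amino acids, sugars, nucleosides, metals and inorganic ions across the plasma membrane and the membranes of organelles, and they are numbered into families by sequence. Several work only with a partner: the light chains of the Slc7 family reach the cell surface bound to the heavy chain Slc3a2, also known as CD98. Macrophages and dendritic cells digest engulfed material in lysosomes, and transporters of the lysosomal membrane return the resulting amino acids, peptides, nucleosides and metals to the cytosol.

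The libraries held 5636092 to 23093742 counts, with ductal replicates 1 and 2 and CD11b+ replicate 2 the shallowest, and the 112 genes took 0.419% to 0.855% of them. Mitochondrially encoded genes took 24.8% and 23.1% of the stromal libraries, 0.631% and 0.891% of the ductal libraries and 1.88% to 6.29% of the others. Macrophage markers followed the labels in the ductal, stromal and CD11b- libraries (Csf1r 4317 and 3427 CPM in ductal, 614 and 359 in stromal, 10.8 to 42.6 in CD11b- cells). The CD11b+ dendritic cells carried Itgam, the CD11b gene, at 701 and 556 CPM, but also Csf1r at 551 and 566 CPM and little Flt3 (16.8 and 18.1 CPM, against 314 to 520 in CD11b- cells). Other macrophage markers were mixed in them. C1qa stood at 15.1 and 34.1 CPM (1874 and 1329 in stromal) and Fcgr1 at 2.54 and 2.69 CPM (131 and 123 in stromal). Mertk stood at 5.295 and 10.95 CPM (51.2 and 25.4 in stromal). Adgre1 stood at 331 and 253 CPM (386 and 231 in stromal) and Cd68 at 468 and 432 CPM (843 and 710 in stromal). The dendritic cell marker Ccr7 stood at 147 and 92.8 CPM (93.6 and 70.7 in ductal, 0 and 0 in stromal). Another, Zbtb46, stood at 19.25 and 8.98 CPM (55.9 to 75.8 in CD11b- cells, 1.595 to 7.62 in macrophages). Of the listed markers of CD11b+ dendritic cells, Cd209a stood at 1198 and 763 CPM in these libraries (at most 241 elsewhere). Irf4 stood at 89.2 and 55.5 CPM (at most 34.7 elsewhere), and Sirpa at 223 and 226 CPM, below ductal libraries (804 and 528.5). The monocyte marker Ccr2 stood at 1407 and 1014 CPM (at most 450 elsewhere). These markers did not settle the label, which is used here as given. Ductal libraries also held Itgax, the CD11c gene, at 847 and 610 CPM (77.6 to 162 in dendritic cells). Itgae, the CD103 gene, stood at 158 and 172 CPM in CD103+ and at 9.39 and 3.80 CPM in CD103- cells. Transcripts of other mammary cells were present throughout: 5 luminal epithelial markers summed to 158 and 293 CPM in ductal, 737.5 and 2016 in stromal, 328 to 1056 in CD11b- and 451 and 1171 in CD11b+ libraries, and 5 fibroblast markers summed to 278 to 1508 CPM over all libraries. Mast cell markers (4 genes) summed to 163 and 58.2 CPM in stromal, 0.683 and 4.16 in ductal and at most 10.6 in other libraries, and their part in the ductal minus stromal results was not tested. T cell markers summed to at most 6.81 CPM and neutrophil markers to at most 0.552 CPM in any library.

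All 112 genes passed the filter on low counts and entered a test over 15681 genes. Levels below are CPM after TMM scaling of the library totals, differences are log2 fold changes with their standard error (SE), and a gene is called where edgeR's quasi-likelihood test gave a Benjamini-Hochberg adjusted p under 0.05 over all tested genes. Levels of different genes are compared only after division by transcript length (RPKM). Slc4a8, Slc11a2, Slc12a2, Slc28a3, Slc30a1, Slc37a3, Slc38a2, Slc44a1, Slc25a22, Slc25a28, Slc23a2 and genes without an Slc number lie outside the rule for named genes and are given after their values were seen. The genes fell into 37 families and 8 substrate classes: 23 mitochondrial carriers, 21 carriers of amino acids and peptides, 20 of inorganic ions, 14 of metals, 13 of nucleotide sugars and related substrates, 9 of nucleosides, vitamins, choline and acetyl-CoA, 7 of other organic ions and lipids, and 5 of sugars. Classes were given by family number, and 3 genes that carry a family number are not carriers (Slc9a3r1 and Slc9a3r2, which are scaffold proteins, and Slc7a6os).

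After TMM scaling, the summed level of the 112 genes was highest in the ductal libraries. The genes summed to 10820 and 9670 CPM in the ductal libraries, 5339 and 5302 in stromal, 6313 and 7018 in CD103+, 6807 and 6137 in CD103- and 7396 and 6911 in CD11b+ libraries. As a share of each library's own counts, without that scaling, they took 0.843% and 0.800% in ductal, 0.419% and 0.510% in stromal, 0.855% and 0.787% in CD103+, 0.843% and 0.751% in CD103- and 0.679% and 0.670% in CD11b+ libraries. On that scale the ductal libraries overlapped the CD11b- libraries, and a CD103+ library was the highest. By TMM-scaled means, ductal macrophages had the highest mean for 55 of the 112 genes, CD11b+ cells for 18, CD103- for 16, stromal macrophages for 13 and CD103+ for 10. At the low end, stromal macrophages had the lowest mean for 42 genes and ductal macrophages for 13. The same tally was not made over all tested genes, so it is not read as a trait of these 112. In these sorted bulk samples, fewer cells that express a gene and less RNA per cell cannot be told apart. All 5 populations reached the level for 32 genes, whereas 26 genes reached it in 1 population only, 10 of them in ductal macrophages, 7 in CD11b+, 5 in CD103+ and 2 each in CD103- cells and stromal macrophages.

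**Figure D1:**
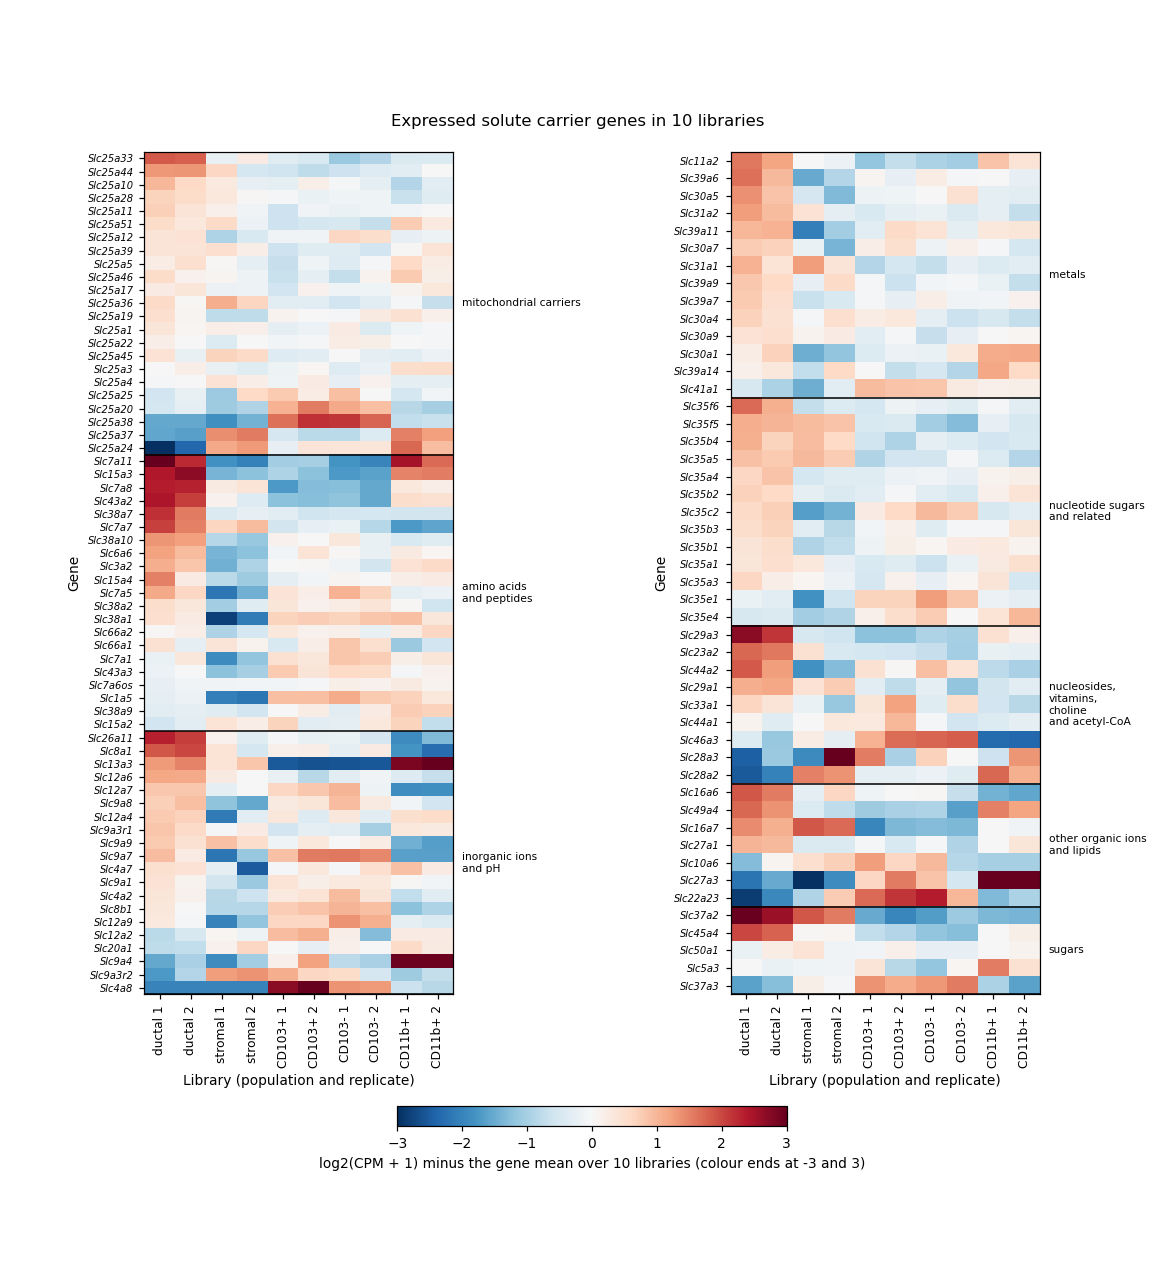
Level of each of the 112 Slc genes in each of the 10 libraries, as log2(CPM + 1) minus the gene's mean over the libraries (red high, blue low, colours end at -3 and 3), grouped by substrate class and sorted by the ductal mean. Ductal columns are red for most amino acid, metal and nucleotide sugar carriers, and stromal columns are blue for many amino acid carriers.

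Per transcript length, Slc25a5, the adenine nucleotide carrier ANT2 that exchanges ATP and ADP across the inner mitochondrial membrane, was the first of the 112 genes in every population. Its mean was 493 RPKM in ductal macrophages, 352 in stromal macrophages, 294 in CD103+, 332 in CD103- and 513.5 in CD11b+ dendritic cells. Slc3a2 came next in ductal macrophages (307 RPKM) and in CD103+ cells (160 RPKM), and stood at 70.1 RPKM in stromal macrophages, where Slc25a4 (134 RPKM) and Slc25a3, the phosphate carrier (127 RPKM), ranked above it.

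Ductal against stromal macrophages gave the most lopsided result. Of the 112 genes, 53 were called higher and 7 lower on the ductal side, with a median log2 difference of 0.90. Over all tested genes, 16.3% were called higher and 14.3% lower and the median was -0.10, and among the 7084 tested genes that met the same level rule, 26.7% were called higher and 17% lower. The 136 tested Slc genes under the level had 23 higher and 11 lower. With the mitochondrially encoded genes left out of the totals the counts were again 53 and 7. Whether the difference in mitochondrial share between the macrophage groups had a further part in these counts was not tested.

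By class, 17 of 21 carriers of amino acids and peptides were higher and 0 lower in ductal macrophages (median log2 difference 2.02). Metal carriers had 8 of 14 higher and 0 lower (median 1.11), inorganic ions with 10 of 20 higher and 2 lower (1.01), and nucleotide sugars with 6 of 13 higher and 0 lower (0.84). The mitochondrial carriers had 4 of 23 higher and 2 lower (median 0.39), near the share over all genes. Carriers of other organic ions and lipids had 3 of 7 higher and 1 lower (median 1.14), those of nucleosides and vitamins 3 of 9 and 1 (0.52), and sugars 2 of 5 and 1 (0.01). Without ductal replicate 1, ion carriers had 6 higher and 2 lower, mitochondrial carriers 2 and 2, other organic ions and lipids 2 and 0, and sugars 1 and 0. Without stromal replicate 1, nucleosides and vitamins had 4 and 2. Without stromal replicate 2, other organic ions and lipids had 4 and 0 and sugars 1 and 1.

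Against the mean of the 3 dendritic cell groups, ductal macrophages had 49 of the 112 genes called higher and 16 lower (median 0.57), beside 15% and 11.6% of all tested genes and 23.8% and 16.5% of those at the same level. Without ductal replicate 1 these counts were 31 and 8. Stromal macrophages turned the other way, with 22 genes higher and 39 lower than in dendritic cells (median -0.21), beside 20.3% and 18.2% of all tested genes and 23.1% and 25.9% of those at the same level. Amino acid and peptide carriers again led, with 3 higher and 14 lower of 21. Both contrasts share the dendritic cell libraries.

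**Figure D2:**
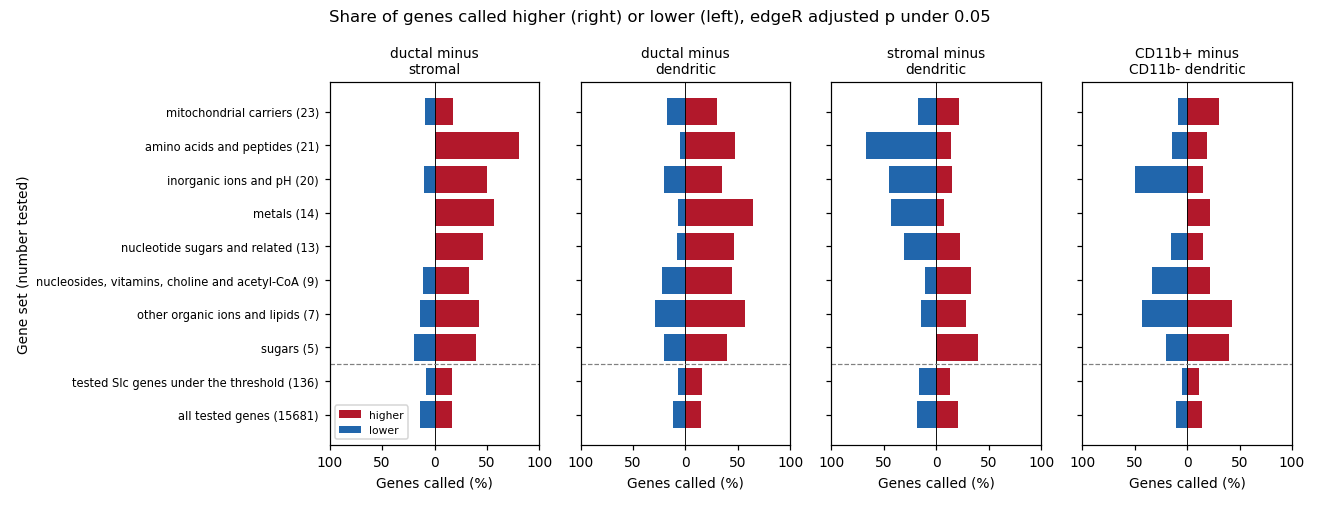
Share of genes called higher (red, to the right) or lower (blue, to the left) at an edgeR adjusted p under 0.05, in percent of the genes tested in each set, for 4 comparisons. Above the dashed line are the 8 substrate classes of the 112 genes, below it the 136 tested Slc genes under the level and all 15681 tested genes. The longest bar belongs to amino acid and peptide carriers in ductal against stromal macrophages (81.0% higher).

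The surface amino acid exchangers are built on Slc3a2 (Entrez Gene ID 17254, chr19:8706882-8723369, GRCm38), the heavy chain that light chains need to reach the membrane. Slc3a2 stood at 988 and 828 CPM in ductal macrophages, 171 and 244 in stromal macrophages, 469.5 and 477 in CD103+, 428 and 316 in CD103- and 624 and 692 in CD11b+ dendritic cells. The ductal pair was the highest and stromal libraries the lowest, with no overlap between any of the 5 populations. The ductal minus stromal difference was 2.13 (SE 0.28, edgeR adjusted p = 0.00025), and the stromal minus dendritic difference was -1.23 (SE 0.24, edgeR adjusted p = 0.0021).

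Which light chain accompanied it differed between populations. Slc7a5 (LAT1) takes up large neutral amino acids such as leucine, and stood at 90.4 and 63.2 CPM in ductal macrophages, 8.28 and 14.3 in stromal macrophages, 55.02 and 47.1 in CD103+, 85.5 and 66.03 in CD103- and 33.2 and 36.3 in CD11b+ dendritic cells. It was lowest in stromal macrophages, and the ductal minus stromal difference was 2.76 (SE 0.32, edgeR adjusted p = 1.0e-04). Slc7a8 (LAT2), which exchanges neutral amino acids more broadly, stood at 198 and 193 CPM in ductal macrophages, 45.9 and 50.3 in stromal macrophages, 10.8 and 14.8 in CD103+, 14.9 and 12.3 in CD103- and 47.1 and 43.4 in CD11b+ dendritic cells. Both ductal libraries lay above all 8 others, with a difference of 2.02 (edgeR adjusted p = 0.00086) from the nearest population, and CD11b+ cells exceeded CD11b- cells by 1.78 (SE 0.19, edgeR adjusted p = 9.0e-05).

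Slc7a7 (y+LAT1) releases arginine and lysine in exchange for neutral amino acids. Its levels were 107 and 73.96 CPM in ductal macrophages, 40.02 and 49.1 in stromal macrophages, 16.9 and 21.1 in CD103+, 21.8 and 13.4 in CD103- and 6.945 and 7.72 in CD11b+ dendritic cells. Both macrophage groups lay above all dendritic libraries, and CD11b+ cells were the lowest. Ductal macrophages exceeded dendritic cells by 2.75 (SE 0.22, edgeR adjusted p = 5.8e-06) and stromal macrophages exceeded them by 1.73 (SE 0.23, edgeR adjusted p = 0.00018). The CD11b+ minus CD11b- difference was -1.32 (adjusted p = 0.0069). Slc7a7 lost its CD11b+ minus CD11b- call without CD11b+ replicate 1 (adjusted p = 0.0881) or CD11b+ replicate 2 (0.0537).

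As shares of the 4 light chains per transcript length, Slc7a5 made up 61.1% and 51.4% in CD103+ and 65.7% and 68.5% in CD103- libraries, but 19.8% and 17.7% in ductal and 7.86% and 11.2% in stromal libraries. Slc7a7 made up 53.3% and 53.9% in stromal and 8.85% and 10.8% in CD11b+ libraries. Slc7a8 took 37.8% and 47.1% in ductal, 37.97% and 34.3% in stromal and 37.3% and 37.9% in CD11b+ libraries, against 9.99% to 14.1% in CD11b- libraries. Slc7a11 reached 23.7% and 14.99% in CD11b+ and 9.465% and 6.14% in ductal libraries and at most 2.16% elsewhere. These are shares of transcript, and binding to the heavy chain was not measured.

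**Figure D3:**
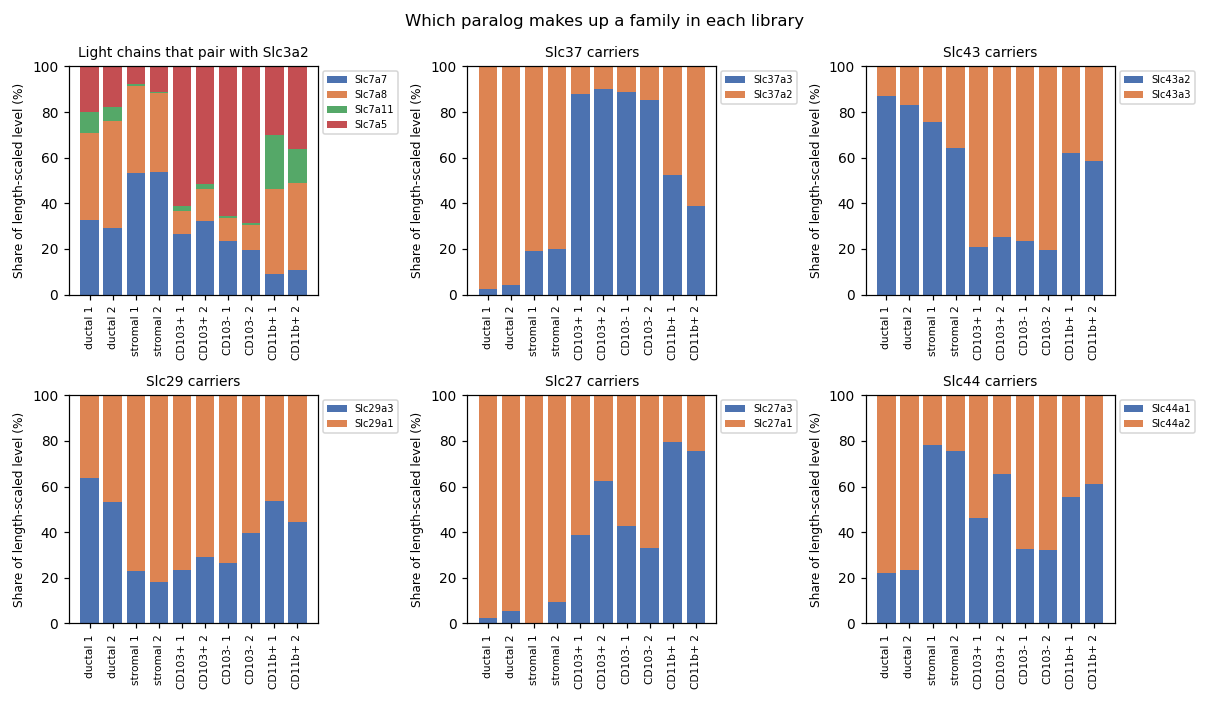
Share of each paralog in the length-scaled level of its group, in percent, for each of the 10 libraries: the 4 light chains that pair with Slc3a2, and the carriers among the 112 genes in families Slc37, Slc43, Slc29, Slc27 and Slc44. Slc37a2 makes up most of the Slc37 bar in macrophages and Slc37a3 most of it in CD11b- dendritic cells.

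Slc7a11 (xCT, Entrez Gene ID 26570, chr3:50364936-50499087), the light chain that imports cystine in exchange for glutamate and so feeds glutathione synthesis, was carried by ductal macrophages and CD11b+ cells. It stood at 113 and 57.5 CPM in ductal macrophages, 2.48 and 2.02 in stromal macrophages, 4.96 and 5.19 in CD103+, 2.555 and 2.13 in CD103- and 68.6 and 39.3 in CD11b+ dendritic cells. The ductal and CD11b+ libraries overlapped each other and lay far above the other 6, of which none passed 5.19 CPM. The ductal minus stromal difference was 5.24 (SE 0.43, edgeR adjusted p = 1.4e-05) and the CD11b+ minus CD11b- difference was 3.98 (SE 0.31, edgeR adjusted p = 9.1e-06). The stromal minus dendritic difference was -1.93 (adjusted p = 0.0015).

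The cystine carrier is a textbook target of the amino acid response, in which ATF4 binds elements with the core letters TGATGNAA. Its RefSeq promoter (GRCm38.p6) is shown for that reason, as the 250 bases before the start at chr3:50443614-50443863, minus strand, with matches on either strand in capitals.
Slc7a11: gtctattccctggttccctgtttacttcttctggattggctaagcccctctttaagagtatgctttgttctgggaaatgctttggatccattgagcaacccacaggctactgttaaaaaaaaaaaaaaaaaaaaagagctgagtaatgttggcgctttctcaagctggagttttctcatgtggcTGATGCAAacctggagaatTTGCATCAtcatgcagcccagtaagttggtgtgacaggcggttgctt
The 2 matches lie 66 and 47 bases before the start on opposite strands. Over 32851 RefSeq promoters of 300 bases, 250 before and 50 after the start, 3.97% held a match, and among the promoters found for 87 of the 112 genes 6 of 118 did (5.08%). A match is a description of the sequence and not a site shown to be bound.

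Genes of the amino acid starvation response were called lower more often than higher in ductal than in stromal macrophages. Of 12 such genes, 1 was higher and 5 were lower in ductal than in stromal macrophages, beside 16.3% and 14.3% of all tested genes. Asns, asparagine synthetase, stood at 0.911 and 3.03 CPM in ductal and 11.1 and 21.01 CPM in stromal libraries, a difference of -2.99 (SE 0.62, edgeR adjusted p = 0.0045). Atf4 itself stood at 115 and 121 CPM in ductal and 307 and 241 CPM in stromal libraries, a difference of -1.21 (SE 0.22, edgeR adjusted p = 0.002). Sesn2, which restrains mTORC1, was the gene that was higher, at 95.4 and 143.2 against 14.2 and 29.6 CPM (2.45, adjusted p = 0.00051). Of 7 genes of glutathione synthesis and the redox response, 3 were higher and 1 lower in this comparison, beside the same shares of all genes. Gsr, glutathione reductase, stood at 213 and 130.1 CPM in ductal and 30.5 and 30.5 CPM in stromal libraries (2.49, SE 0.28, edgeR adjusted p = 8.3e-05), while Hmox1, heme oxygenase, was lower in ductal libraries at 600 and 274 against 2365 and 1335 CPM (-2.08, adjusted p = 0.0044).

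The importers of glutamine and related amino acids were low in stromal macrophages. Slc1a5 (ASCT2), which brings in glutamine and other neutral amino acids, stood at 82.7 and 90.98 CPM in ductal macrophages, 24.1 and 22.05 in stromal macrophages, 191 and 192 in CD103+, 222 and 177 in CD103- and 165 and 127 in CD11b+ dendritic cells. Stromal libraries were the lowest, ductal libraries came next, and all dendritic libraries lay above both. The stromal minus dendritic difference was -2.94 (SE 0.22, edgeR adjusted p = 4.2e-06), and the difference from the nearest population, ductal macrophages, was -1.91. Slc38a1 (SNAT1), a sodium-coupled glutamine importer, stood at 93.6 and 78.9 CPM in ductal macrophages, 8.555 and 14.7 in stromal macrophages, 105 and 111 in CD103+, 106 and 119 in CD103- and 125 and 84.4 in CD11b+ dendritic cells. Its stromal libraries stood alone, while the other 8 lay between 78.9 and 125 CPM, and the stromal minus dendritic difference was -3.22 (SE 0.29, edgeR adjusted p = 1.2e-05). Slc38a2, its neighbour 43954 bases away on chromosome 15, stood at 114 and 181 CPM in stromal and 339 and 295 CPM in ductal libraries (-0.78, adjusted p = 0.031, for stromal minus dendritic). Slc38a2 lost its stromal minus dendritic call without stromal replicate 1 (adjusted p = 0.186), CD103+ replicate 1 (0.0531), CD103- replicate 2 (0.0503) or CD11b+ replicate 1 (0.0664).

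Slc7a1 (CAT1), the main importer of arginine and lysine, stood at 22.3 and 32.7 CPM in ductal macrophages, 6.24 and 10.7 in stromal macrophages, 35.9 and 32.6 in CD103+, 46.6 and 43.8 in CD103- and 29.2 and 33.4 in CD11b+ dendritic cells. Stromal libraries were below all others, with a stromal minus dendritic difference of -2.11 (adjusted p = 0.00019). Slc6a6, the taurine transporter, stood at 479.9 and 400 CPM in ductal macrophages, 78.2 and 87.8 in stromal macrophages, 195 and 274 in CD103+, 212 and 176 in CD103- and 251 and 216 in CD11b+ dendritic cells. Ductal libraries were the highest and stromal libraries the lowest, with a ductal minus stromal difference of 2.41 (SE 0.26, edgeR adjusted p = 7.2e-05). Slc43a3, which is numbered with amino acid carriers but transports purine nucleobases, lay at 6.24 and 7.505 CPM in stromal libraries against 28.2 and 21.3 CPM in CD103+ and 24.4 and 23.8 CPM in CD103- libraries (-1.64, adjusted p = 0.00049, for stromal minus dendritic). On unscaled library totals Slc43a3 reached the level of 30 CPM in CD103+ cells only, so its high value there follows in part from the selection.

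Lysosomal exporters of peptides and glutamine were highest in ductal macrophages. Slc15a3 (PHT2), a lysosomal exporter of histidine and peptides, stood at 149 and 181 CPM in ductal macrophages, 9.77 and 11.2 in stromal macrophages, 14.05 and 11.2 in CD103+, 7.595 and 8.37 in CD103- and 79.5 and 81.5 in CD11b+ dendritic cells. The ductal pair was the highest, CD11b+ libraries came next and the other 6 stayed at or under 14.05 CPM. Its ductal minus stromal difference was 3.98 (SE 0.25, edgeR adjusted p = 3.8e-06), and CD11b+ exceeded CD11b- cells by 3.001 (SE 0.19, edgeR adjusted p = 2.0e-06). Slc38a7 (SNAT7), which releases glutamine and asparagine from lysosomes, stood at 63.55 and 40.7 CPM in ductal macrophages, 9.55 and 11.03 in stromal macrophages, 10.2 and 8.39 in CD103+, 8.84 and 8.82 in CD103- and 8.73 and 8.62 in CD11b+ dendritic cells. Only the ductal libraries stood apart, above the nearest population by 2.34 (edgeR adjusted p = 0.0016).

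Slc43a2 (LAT4), which carries branched-chain amino acids and phenylalanine down their gradient, stood at 267 and 212 CPM in ductal macrophages, 54.1 and 37.4 in stromal macrophages, 20.4 and 19.8 in CD103+, 20.9 and 16.2 in CD103- and 71.5 and 68.4 in CD11b+ dendritic cells. The order was ductal, CD11b+, stromal and CD11b-, with no overlap between those 4. Ductal exceeded stromal macrophages by 2.39 (SE 0.26, edgeR adjusted p = 6.9e-05), and CD11b+ exceeded CD11b- cells by 1.86 (SE 0.21, edgeR adjusted p = 0.00011). Slc38a9, the lysosomal arginine sensor of mTORC1, was low in both macrophage groups, at 15.3 and 15.7 CPM in ductal, 14.96 and 12.8 in stromal and 33.7 and 32.3 in CD11b+ libraries. Its means before TMM scaling were 26.1 CPM in CD103+ and 23.9 in CD103- cells, which that scaling lowers (TMM factors 1.12 to 1.36). Slc38a9 reached the level of 30 CPM in CD11b+ cells only, so its high value there follows in part from the selection. The stromal minus dendritic difference was -0.78 (adjusted p = 0.024). Slc66a1, which exports cationic amino acids from lysosomes, was highest in CD103- cells at 28.6 and 22.2 CPM and lowest in CD11b+ cells at 6.74 and 10.2 CPM (-1.21, adjusted p = 0.028, for CD11b+ minus CD11b-). Slc66a1 reached the level of 30 CPM in CD103- cells only, so its high value there and this call follow in part from the selection. Slc66a1 overlaps Akr7a5, and reads from the overlap could not be told apart. Of 15 genes of lysosomal nutrient sensing, ductal minus stromal called 3 higher and 1 lower, beside 16.3% and 14.3% of all tested genes, and ductal minus dendritic called 9 higher and 0 lower, beside 15% and 11.6%. Without ductal replicate 1, ductal minus stromal called 1 of them higher and 0 lower, and without ductal replicate 2 or stromal replicate 1 it called 3 and 0. Without ductal replicate 2, ductal minus dendritic called 5 higher and 0 lower. Rptor, the mTORC1 scaffold raptor, was the furthest apart between macrophage groups, at 56.7 and 44.8 CPM in ductal and 6.24 and 3.46 CPM in stromal libraries (3.38, SE 0.33, edgeR adjusted p = 3.3e-05). Slc38a9 lost its stromal minus dendritic call without stromal replicate 2 (adjusted p = 0.116), CD103+ replicate 2 (0.0503) or CD11b+ replicate 1 (0.052). Slc66a1 lost its CD11b+ minus CD11b- call without CD103+ replicate 2 (adjusted p = 0.0756), CD103- replicate 1 (0.0662), CD11b+ replicate 1 (0.247) or CD11b+ replicate 2 (0.0694).

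Slc29a3 (ENT3), the lysosomal nucleoside transporter, stood at 468 and 316 CPM in ductal macrophages, 50.1 and 46.2 in stromal macrophages, 29.7 and 29.7 in CD103+, 36.7 and 34.8 in CD103- and 96.8 and 78.1 in CD11b+ dendritic cells. Ductal libraries lay above all others, by 2.16 (edgeR adjusted p = 0.00086) over the nearest population, and CD11b+ libraries came next. Slc28a2 (CNT2), a sodium-coupled importer of purine nucleosides, had its lowest levels in ductal libraries, at 1.595 and 2.65 CPM in ductal macrophages, 41.7 and 37.1 in stromal macrophages, 11.35 and 11.3 in CD103+, 12.3 and 10.7 in CD103- and 47.9 and 30.3 in CD11b+ dendritic cells. Stromal and CD11b+ libraries overlapped at the top, and the ductal minus stromal difference was -4.19 (SE 0.38, edgeR adjusted p = 2.2e-05). Against the nearest population, the ductal difference was -2.39 (edgeR adjusted p = 0.0041). Slc29a1 (ENT1), the surface equilibrative carrier, stood at 125 and 131 CPM in ductal and 79.3 and 99.5 CPM in stromal libraries, all above the 6 dendritic libraries, which lay between 25.1 and 47.98 CPM. Slc28a2 lost its call against every other population in ductal macrophages without ductal replicate 1 (adjusted p = 0.0759).

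Slc28a3 (CNT3) rested on single libraries. It stood at 0.456 and 2.65 CPM in ductal macrophages, 1.10 and 88.6 in stromal macrophages, 21.95 and 3.01 in CD103+, 11.8 and 6.92 in CD103- and 4.13 and 18.7 in CD11b+ dendritic cells, and reached the level only through stromal replicate 2. No comparison called it (ductal minus stromal -4.79 (adjusted p = 0.059)). The luminal epithelial markers also differed between those stromal libraries (737.5 and 2016 CPM), and their part in this value was not tested.

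Slc46a3, a carrier of the lysosomal membrane, marked the CD11b- dendritic cells. It stood at 25.3 and 14.75 CPM in ductal macrophages, 39.6 and 27.8 in stromal macrophages, 69.95 and 110.1 in CD103+, 115 and 121 in CD103- and 5.98 and 5.745 in CD11b+ dendritic cells. CD11b- libraries were the highest, both macrophage groups were in between and CD11b+ libraries were the lowest, with a CD11b+ minus CD11b- difference of -4.13 (SE 0.34, edgeR adjusted p = 1.4e-05). Slc44a2, a choline transporter-like protein, stood at 142.6 and 95.5 CPM in ductal macrophages, 10.49 and 15.2 in stromal macrophages, 53.99 and 40.2 in CD103+, 74.1 and 52.65 in CD103- and 22.5 and 19.4 in CD11b+ dendritic cells. Ductal libraries were the highest and stromal libraries the lowest (3.21, SE 0.32, edgeR adjusted p = 4.3e-05). Its relative Slc44a1 took 78.3% and 75.6% of the summed length-scaled level of the pair in stromal libraries and 22.1% and 23.4% in ductal libraries.

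Among the sugar carriers, Slc37a2 and Slc37a3 differed in opposite directions between macrophages and CD11b- dendritic cells, and both were low in CD11b+ cells. Slc37a2, a sugar phosphate exchanger of the endoplasmic reticulum, stood at 109 and 82.7 CPM in ductal macrophages, 50.2 and 40.2 in stromal macrophages, 3.89 and 2.57 in CD103+, 3.38 and 5.61 in CD103- and 4.47 and 4.31 in CD11b+ dendritic cells. Both macrophage groups lay above all dendritic libraries, which stayed at or under 5.61 CPM, and the differences were 4.57 (SE 0.23, edgeR adjusted p = 2.7e-07) for ductal and 3.49 (SE 0.23, edgeR adjusted p = 1.5e-06) for stromal macrophages. Ductal and stromal libraries did not overlap either (1.08, adjusted p = 0.021, for ductal minus stromal). Slc37a3 stood at 2.51 and 3.405 CPM in ductal macrophages, 10.98 and 9.24 in stromal macrophages, 26.2 and 21.8 in CD103+, 24.99 and 30.1 in CD103- and 4.47 and 2.51 in CD11b+ dendritic cells. CD11b- libraries were the highest, and the CD11b+ minus CD11b- difference was -2.83 (SE 0.34, edgeR adjusted p = 0.00019). Per transcript length, Slc37a3 was 88.02% and 90.2% of the pair in CD103+, 88.96% and 85.4% in CD103-, 19.3% and 20.03% in stromal and 2.45% and 4.30% in ductal libraries. Slc37a2 lost its ductal minus stromal call without ductal replicate 1 (adjusted p = 0.16) or stromal replicate 2 (0.0864).

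Slc45a4 stood at 109 and 93.25 CPM in ductal macrophages, 27.3 and 27.5 in stromal macrophages, 15.5 and 14.1 in CD103+, 11.2 and 10.3 in CD103- and 26.8 and 30.3 in CD11b+ dendritic cells, above the nearest population by 1.83 (edgeR adjusted p = 0.0011) in ductal macrophages. Slc50a1, a member of the SWEET sugar transporters, was the steadiest carrier of sugars, between 30.2 and 48.1 CPM in all 10 libraries and called in no comparison. Across all 112 genes, 12 were called in no comparison, a count not made over all tested genes. The log2 range of the 5 population means was smallest for Slc7a6os (0.37), followed by Slc25a22 (0.38) and Slc50a1 (0.41).

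Metal carriers were mostly highest in ductal macrophages, 10 of 14 by TMM-scaled mean, a tally not made over all tested genes. Slc39a6, a zinc importer of the ZIP family, stood at 83.1 and 51.45 CPM in ductal macrophages, 8.335 and 13.5 in stromal macrophages, 27.15 and 21.4 in CD103+, 30.03 and 24.8 in CD103- and 25.4 and 21.5 in CD11b+ dendritic cells. The ductal pair was above all other libraries and the stromal pair below them, a difference of 2.62 (SE 0.34, edgeR adjusted p = 0.00021). Slc39a7, which releases zinc from the endoplasmic reticulum and was the most abundant metal carrier per transcript length (95.4 RPKM in ductal macrophages), stood at 249.4 and 207 CPM in ductal macrophages, 90.6 and 106 in stromal macrophages, 142 and 122 in CD103+, 166 and 136 in CD103- and 137 and 159 in CD11b+ dendritic cells. Ductal exceeded stromal macrophages by 1.22 (SE 0.23, edgeR adjusted p = 0.0027). Slc39a11 stood at 70.8 and 73.01 CPM in ductal and 7.67 and 16.4 CPM in stromal libraries (2.58, adjusted p = 0.001). The gene overlaps Cog1 and Sstr2, and with a strand setting not given in the sources used here, reads of overlapping genes could not be told apart.

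The copper carriers sit next to each other on chromosome 4, 62171 bases apart. Slc31a1 (CTR1), the copper importer, stood at 164 and 106 CPM in ductal macrophages, 191 and 103.2 in stromal macrophages, 42.4 and 54.2 in CD103+, 47.98 and 65.9 in CD103- and 58.7 and 62.5 in CD11b+ dendritic cells. Both macrophage groups were above all dendritic libraries and overlapped each other (1.42, SE 0.25, edgeR adjusted p = 0.0012, for stromal minus dendritic). Slc31a2 stood at 109.6 and 88.7 CPM in ductal macrophages, 61.5 and 36.8 in stromal macrophages, 32.6 and 37.1 in CD103+, 39.2 and 33.2 in CD103- and 37.5 and 26.9 in CD11b+ dendritic cells. The ductal pair was the highest, by 1.52 (SE 0.22, edgeR adjusted p = 0.0004) over dendritic cells. Slc11a2 (DMT1), the importer of ferrous iron, stood at 145 and 108 CPM in ductal macrophages, 46.6 and 41.9 in stromal macrophages, 20.8 and 28.6 in CD103+, 24.2 and 22.6 in CD103- and 86.03 and 63.2 in CD11b+ dendritic cells. Ductal libraries were the highest and CD11b- libraries the lowest, with a CD11b+ minus CD11b- difference of 1.64 (SE 0.21, edgeR adjusted p = 0.00033). Slc41a1, a magnesium transporter, was highest in CD11b- cells, at 55.02 and 51.9 CPM in CD103+ and 50.6 and 34.1 CPM in CD103- libraries, with a stromal minus dendritic difference of -1.38 (adjusted p = 0.0073).

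Slc30a1 (Entrez Gene ID 22782, chr1:191906697-191913248), the zinc exporter of the plasma membrane, stood at 48.3 and 67.3 CPM in ductal macrophages, 14.2 and 17.55 in stromal macrophages, 30.7 and 36.5 in CD103+, 36.04 and 51.7 in CD103- and 90.02 and 92.1 in CD11b+ dendritic cells. CD11b+ libraries were the highest and stromal libraries the lowest, with no overlap to any other population. The CD11b+ minus CD11b- difference was 1.24 (SE 0.22, edgeR adjusted p = 0.0021) and the stromal minus dendritic difference was -1.69 (SE 0.24, edgeR adjusted p = 0.0003). Slc30a1 and the metallothioneins are textbook targets of the zinc sensor MTF1. Metallothionein Mt1 stood at 597.5 and 1655 CPM in ductal macrophages, 3667 and 2544 in stromal macrophages, 799 and 987 in CD103+, 828 and 581 in CD103- and 3814 and 3576 in CD11b+ dendritic cells. Mt1 was high in CD11b+ cells, as Slc30a1 was (2.22, adjusted p = 0.0013, for CD11b+ minus CD11b-), but also high in stromal macrophages (1.23, adjusted p = 0.014, for stromal minus dendritic), where Slc30a1 was lowest. Mt1 lost its stromal minus dendritic call without stromal replicate 1 (adjusted p = 0.151).

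Among dendritic cells, carriers of inorganic ions had the most genes called lower in the CD11b+ group. Between CD11b+ and CD11b- dendritic cells, 26 of the 112 genes were higher and 24 lower (median 0.06), beside 14% and 11% of all tested genes and 23.3% and 16.3% of those at the same level. Without CD11b+ replicate 1 these counts were 15 and 11, and without CD11b+ replicate 2 the lower count was 14. Of the 20 ion carriers, 3 were higher and 10 lower in CD11b+ cells (median -0.95), and without CD11b+ replicate 1 these were 2 and 6.

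Slc13a3 (NaDC3, Entrez Gene ID 114644, chr2:165405295-165473197), the sodium-coupled importer of succinate and other dicarboxylates, had the largest difference of the 112 genes in this comparison. It reached the level of 30 CPM in CD11b+ cells only, so its high value there follows in part from the selection. It stood at 15.7 and 18.35 CPM in ductal macrophages, 8.06 and 11.3 in stromal macrophages, 0.1985 and 0.119 in CD103+, 0.138 and 0.181 in CD103- and 47.7 and 71.3 in CD11b+ dendritic cells. CD11b+ libraries were the highest, both macrophage groups were in between, and CD11b- libraries were near 0. In counts, the CD103+ libraries held 8 and the CD103- libraries 6 reads together, against 1091 in the CD11b+ libraries. The CD11b+ minus CD11b- difference was 8.46 (SE 0.35, edgeR adjusted p = 2.3e-07). Stromal macrophages exceeded the mean log2 level of the 3 dendritic cell groups by 3.02 (SE 0.28, edgeR adjusted p = 1.7e-05). Stromal libraries lay above the CD11b- libraries but below the CD11b+ libraries.

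Slc9a4 (NHE4), a sodium-proton exchanger, stood at 2.51 and 4.16 CPM in ductal macrophages, 1.77 and 3.925 in stromal macrophages, 10.3 and 22.4 in CD103+, 4.90 and 4.21 in CD103- and 77.4 and 77.01 in CD11b+ dendritic cells. CD11b+ libraries were above all others, with a CD11b+ minus CD11b- difference of 3.16 (SE 0.35, edgeR adjusted p = 0.00011). Slc9a4 too reached the level of 30 CPM in CD11b+ cells only, so this follows in part from the selection. Slc9a9 of endosomes and Slc9a7 of the Golgi, exchangers of organelles, were lower in CD11b+ cells. Slc9a9 stood at 112 and 88.3 CPM in ductal macrophages, 118.5 and 93.9 in stromal macrophages, 59.15 and 81 in CD103+, 64.9 and 74.99 in CD103- and 23.2 and 19.9 in CD11b+ dendritic cells, so that CD11b+ libraries were the lowest (-1.69, SE 0.23, edgeR adjusted p = 0.00048). Slc9a7 stood at 24.8 and 15.1 CPM in ductal macrophages, 2.04 and 5.195 in stromal macrophages, 24.02 and 39.04 in CD103+, 39.8 and 36 in CD103- and 3.44 and 3.41 in CD11b+ dendritic cells. Stromal and CD11b+ libraries were both low, and the CD11b+ minus CD11b- difference was -3.33 (SE 0.45, edgeR adjusted p = 0.00039). Among the 5 Slc9 exchangers, Slc9a4 made up 53.9% and 58.0% of the length-scaled level in CD11b+ libraries and at most 10.4% elsewhere.

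Calcium carriers separated the populations as well. Slc8a1 (NCX1), the sodium-calcium exchanger of the plasma membrane, stood at 64.7 and 70.9 CPM in ductal macrophages, 22.85 and 11.49 in stromal macrophages, 19.1 and 19.6 in CD103+, 14.02 and 20.4 in CD103- and 4.195 and 2.69 in CD11b+ dendritic cells. The ductal pair was the highest and CD11b+ libraries the lowest, and the ductal minus dendritic difference was 2.68 (SE 0.27, edgeR adjusted p = 2.5e-05). Slc8b1 (NCLX), its mitochondrial relative, stood at 83.4 and 67.15 CPM in ductal macrophages, 35.9 and 35.9 in stromal macrophages, 111 and 121 in CD103+, 135 and 125 in CD103- and 27.6 and 34.1 in CD11b+ dendritic cells. The 4 CD11b- libraries were the highest, and the CD11b+ minus CD11b- difference was -1.998 (SE 0.21, edgeR adjusted p = 6.8e-05). Slc12a7 (KCC4), a potassium-chloride exporter, was low in CD11b+ cells alone, at 7.91 and 8.08 CPM against 25.9 to 64.7 CPM in the other 8 libraries (-2.62, adjusted p = 0.00033). Slc26a11, a sulfate transporter, stood at 64.5 and 53.3 CPM in ductal macrophages, 13.1 and 9.06 in stromal macrophages, 11.6 and 10.02 in CD103+, 10.15 and 8.14 in CD103- and 2.48 and 4.13 in CD11b+ dendritic cells. Ductal libraries were above all others, by 2.41 (edgeR adjusted p = 0.0022) over the nearest population. Slc26a11 overlaps Sgsh, which encodes a lysosomal sulfatase, and reads from the overlap could not be told apart.

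Slc4a8, a sodium-driven chloride-bicarbonate exchanger, was found in dendritic cells and had 0 counts in all 4 macrophage libraries. It stood at 0 and 0 CPM in ductal macrophages, 0 and 0 in stromal macrophages, 25.1 and 72.6 in CD103+, 9.25 and 8.68 in CD103- and 1.58 and 1.26 in CD11b+ dendritic cells. A count of 0 allows up to 3 counts over both libraries of a population, which is 0.310 CPM for the ductal pair and 0.08465 CPM for the stromal pair. By population mean, CD103+ cells were therefore at least 157.6-fold higher than ductal and at least 577.1-fold higher than stromal macrophages. CD103- cells were at least 28.9-fold and 105.9-fold higher, where these limits cover counting error only. Slc4a8 reached the level of 30 CPM in CD103+ cells only, so its high value there follows in part from the selection. The CD103+ replicates themselves differed, at 25.1 and 72.6 CPM.

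The scaffold proteins numbered with the sodium-proton exchangers were not alike. Slc9a3r1 (NHERF1) was the most abundant gene of the ion class per transcript length (80.7 RPKM in ductal macrophages), at 169 and 141 CPM in ductal and 91.3 and 113 CPM in stromal libraries (0.60, adjusted p = 0.11). Slc9a3r2 (NHERF2) stood at 10.9 and 20.6 CPM in ductal macrophages, 92.9 and 99.3 in stromal macrophages, 83.3 and 59.9 in CD103+, 57.03 and 27 in CD103- and 17.7 and 22.98 in CD11b+ dendritic cells. The stromal pair was the highest, and the ductal minus stromal difference was -2.60 (SE 0.41, edgeR adjusted p = 0.0008). Slc20a1 (PiT1), a phosphate importer, was also lower in ductal macrophages, at 56.5 and 56.7 against 106 and 147 CPM (-1.16, SE 0.24, edgeR adjusted p = 0.0046). Slc12a9 stood at 5.74 and 10.8 CPM in stromal libraries, below the 19.2 to 66.8 CPM of the other 8 (-2.15, adjusted p = 0.00018, for stromal minus dendritic).

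Mitochondrial carriers varied less as a class, but a few of them differed widely. Slc25a24 (Entrez Gene ID 229731, chr3:109123149-109168409), a calcium-regulated carrier of ATP-magnesium and phosphate, stood at 2.51 and 7.19 CPM in ductal macrophages, 90.7 and 100 in stromal macrophages, 34.4 and 53.3 in CD103+, 53.2 and 53.1 in CD103- and 137 and 78.8 in CD11b+ dendritic cells. Ductal libraries were the lowest by far, and every other library held at least 34.4 CPM. Against the nearest population the ductal difference was -3.15 (edgeR adjusted p = 0.0024), and the ductal minus stromal difference was -4.27 (SE 0.46, edgeR adjusted p = 6.4e-05). Slc25a33, a pyrimidine nucleotide carrier, was the reverse, at 87.7 and 85.1 CPM in ductal macrophages, 20.1 and 28.2 in stromal macrophages, 18.1 and 17.1 in CD103+, 10.4 and 12.5 in CD103- and 17.1 and 17.4 in CD11b+ dendritic cells. Ductal libraries lay above all others, by 1.84 (edgeR adjusted p = 0.002) over the nearest population.

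Slc25a38, which brings glycine into mitochondria for heme synthesis, stood at 17.8 and 17.8 CPM in ductal macrophages, 14.02 and 19.1 in stromal macrophages, 169 and 246.5 in CD103+, 236.7 and 181 in CD103- and 31.2 and 32.85 in CD11b+ dendritic cells. All 4 CD11b- libraries lay above all others, and the CD11b+ minus CD11b- difference was -2.70 (SE 0.26, edgeR adjusted p = 3.9e-05). Slc25a20, the carnitine-acylcarnitine carrier that admits fatty acids for oxidation, stood at 52.85 and 62.8 CPM in ductal macrophages, 35.9 and 40.5 in stromal macrophages, 160.1 and 227 in CD103+, 169 and 144 in CD103- and 42.4 and 38.2 in CD11b+ dendritic cells. The same 4 libraries were the highest (-2.11, SE 0.23, edgeR adjusted p = 9.4e-05, for CD11b+ minus CD11b-). Per transcript length, Slc25a38 took 10.01% to 13.6% and Slc25a20 took 7.08% to 10.2% of the Slc25 level in CD11b- libraries, against 0.767% to 1.71% and 1.74% to 2.61% in the other 6.

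Slc25a37 (mitoferrin 1), which imports iron for heme and iron-sulfur cluster synthesis, had the opposite order, at 3.42 and 3.22 CPM in ductal macrophages, 33.2 and 37.2 in stromal macrophages, 8.10 and 6.41 in CD103+, 6.42 and 8.68 in CD103- and 36.03 and 29.4 in CD11b+ dendritic cells. Stromal and CD11b+ libraries overlapped at the top, and ductal libraries were the lowest. Its ductal minus stromal difference was -3.41 (SE 0.34, edgeR adjusted p = 3.8e-05) and its CD11b+ minus CD11b- difference was 2.15 (SE 0.24, edgeR adjusted p = 0.00011). Its relative Slc25a28 (mitoferrin 2) stood at 49.2 and 45.2 CPM in ductal and 38.5 and 31.35 CPM in stromal libraries, a difference of 0.43 (adjusted p = 0.18). Among the abundant carriers, Slc25a4 was called in no comparison, and Slc25a3 and Slc25a5 were higher in CD11b+ than in CD11b- cells, by 0.70 (adjusted p = 0.018) and 0.72 (adjusted p = 0.0485). The Slc25a5 call was also lost with mitochondrially encoded genes left out (adjusted p = 0.0585) or with the replicate block (0.0676). Slc25a39, which imports glutathione into mitochondria, stood between 95.7 and 208.7 CPM in all libraries, with both macrophage groups above dendritic cells (0.63, adjusted p = 0.027 and 0.60 (adjusted p = 0.026)). Slc25a11, the oxoglutarate carrier, and Slc25a36, a pyrimidine nucleotide carrier, were also higher in macrophages, Slc25a11 in ductal (0.74, adjusted p = 0.015) and Slc25a36 in ductal (0.72, adjusted p = 0.044) and stromal macrophages (1.29, adjusted p = 0.0012). Slc25a3 lost its CD11b+ minus CD11b- call without CD11b+ replicate 1 (adjusted p = 0.0967) or CD11b+ replicate 2 (0.102). Slc25a5 lost its CD11b+ minus CD11b- call without ductal replicate 1 (adjusted p = 0.0691), ductal replicate 2 (0.0686), CD103+ replicate 1 (0.118), CD103- replicate 1 (0.119), CD103- replicate 2 (0.0523), CD11b+ replicate 1 (0.332) or CD11b+ replicate 2 (0.0861). Slc25a39 lost its ductal minus dendritic call without ductal replicate 1 (adjusted p = 0.162), ductal replicate 2 (0.122), CD103+ replicate 1 (0.0536), CD103- replicate 2 (0.0515) or CD11b+ replicate 1 (0.0634). Slc25a39 lost its stromal minus dendritic call without stromal replicate 1 (adjusted p = 0.278) or CD11b+ replicate 1 (0.0608). Slc25a11 lost its ductal minus dendritic call without ductal replicate 1 (adjusted p = 0.206). Slc25a36 lost its ductal minus dendritic call without ductal replicate 1 (adjusted p = 0.455), CD103+ replicate 1 (0.0759), CD103+ replicate 2 (0.0782), CD103- replicate 1 (0.0761), CD103- replicate 2 (0.0517) or CD11b+ replicate 2 (0.083).

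Nucleotide sugar carriers supply the Golgi and the endoplasmic reticulum with the activated sugars used in glycosylation. Slc35c2, a Golgi protein linked to fucosylation, was the most abundant of them per transcript length (113 RPKM in CD103- cells) and stood at 194 and 213 CPM in ductal macrophages, 40.6 and 47.6 in stromal macrophages, 154.5 and 196 in CD103+, 255 and 221 in CD103- and 92.4 and 104 in CD11b+ dendritic cells. Stromal libraries were the lowest, with a stromal minus dendritic difference of -1.86 (SE 0.21, edgeR adjusted p = 5.8e-05). Slc35f5 stood at 94.99 and 90.4 CPM in ductal macrophages, 85.8 and 80.2 in stromal macrophages, 31.8 and 32.4 in CD103+, 20.6 and 17.2 in CD103- and 37 and 31.1 in CD11b+ dendritic cells. Ductal and stromal libraries lay above all dendritic libraries, by 1.75 (SE 0.16, edgeR adjusted p = 1.5e-05) and 1.596 (SE 0.16, edgeR adjusted p = 2.7e-05). Slc35a5 and Slc35b4 also had every macrophage library above every dendritic library. Slc35a5 stood at 51.02 and 47.3 CPM in ductal, 54.1 and 46.6 in stromal and at most 26.3 in dendritic libraries (1.45, adjusted p = 0.00035, for stromal minus dendritic). Slc35b4 stood at 54.2 and 41.4 CPM in ductal, 49.35 and 39.02 in stromal and at most 20.9 in dendritic libraries (1.35, adjusted p = 0.00036). Slc35e4 was the reverse, at 16.2 and 16.65 CPM in ductal, 10.54 and 11.7 in stromal and 22.5 to 46.3 in dendritic libraries (-1.56, adjusted p = 0.0018, for stromal minus dendritic). Its ductal minus dendritic call was lost without either ductal replicate, without CD103+ replicate 2 or without CD11b+ replicate 2. Slc35b1, which exchanges ATP and ADP across the membrane of the endoplasmic reticulum, was lower in stromal than in ductal macrophages (32.7 and 37.1 against 81.1 and 89.85 CPM, 1.29 (adjusted p = 0.0015) for ductal minus stromal). Slc35a4 was highest in ductal libraries, at 207 and 242 CPM against 92.3 to 150.1 CPM in the other 8 (1.20, adjusted p = 0.0019, for ductal minus stromal). Slc35a1, which supplies CMP-sialic acid, differed little, between 16.3 and 37.5 CPM, and was called higher in CD11b+ than in CD11b- cells (0.83, adjusted p = 0.026). Slc35a1 lost its CD11b+ minus CD11b- call without CD103+ replicate 1 (adjusted p = 0.0717), CD103+ replicate 2 (0.0532), CD103- replicate 1 (0.0666), CD11b+ replicate 1 (0.0902) or CD11b+ replicate 2 (0.175).

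Among carriers of other organic ions and lipids, Slc16a7 (MCT2), a high-affinity importer of pyruvate and lactate, stood at 41.7 and 32.5 CPM in ductal macrophages, 56.85 and 51.03 in stromal macrophages, 3.10 and 5.305 in CD103+, 5.52 and 5.29 in CD103- and 14.85 and 13.8 in CD11b+ dendritic cells. Both macrophage groups lay above all dendritic libraries (2.97, SE 0.22, edgeR adjusted p = 3.0e-06, for stromal minus dendritic). CD11b+ cells were above CD11b- cells by 1.59 (adjusted p = 0.0012). On unscaled library totals Slc16a7 reached the level of 30 CPM in stromal macrophages only, so its high value there follows in part from the selection. Slc49a4, a lysosomal membrane carrier, stood at 219 and 168 CPM in ductal macrophages, 49.2 and 38.04 in stromal macrophages, 30.45 and 32.7 in CD103+, 33.7 and 20.3 in CD103- and 187 and 149 in CD11b+ dendritic cells. Ductal and CD11b+ libraries overlapped at the top, with a ductal minus stromal difference of 2.15 (SE 0.29, edgeR adjusted p = 0.00033) and a CD11b+ minus CD11b- difference of 2.53 (SE 0.24, edgeR adjusted p = 3.1e-05). Slc22a23 stood at 0.228 and 1.32 CPM in ductal macrophages, 3.70 and 13.97 in stromal macrophages, 27.7 and 37.85 in CD103+, 44.3 and 16.5 in CD103- and 2.54 and 3.59 in CD11b+ dendritic cells. CD11b- libraries were the highest and ductal libraries the lowest (-4.13, SE 0.81, edgeR adjusted p = 0.0032, for ductal minus dendritic). Slc22a23 lost its ductal minus dendritic call without ductal replicate 1 (adjusted p = 0.055).

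The fatty acid transport proteins Slc27a3 and Slc27a1 were distributed differently. Slc27a3 stood at 1.37 and 2.84 CPM in ductal macrophages, 0 and 1.96 in stromal macrophages, 15.8 and 31.04 in CD103+, 18.6 and 6.56 in CD103- and 101 and 104 in CD11b+ dendritic cells. CD11b+ libraries were above all others and macrophage libraries below all dendritic ones. Its CD11b+ minus CD11b- difference was 2.58 (SE 0.63, edgeR adjusted p = 0.012), with CD11b- libraries that ranged from 6.56 to 31.04 CPM. The DESeq2 alternative did not call this difference (adjusted p = 0.121). Slc27a3 reached the level of 30 CPM in CD11b+ cells only, so its high value there follows in part from the selection. Slc27a1 stood at 65.6 and 63.2 CPM in ductal macrophages, 23.4 and 23.5 in stromal macrophages, 31.1 and 23.1 in CD103+, 30.6 and 16.5 in CD103- and 31.8 and 41.3 in CD11b+ dendritic cells. The ductal pair was the highest, by 1.46 (SE 0.31, edgeR adjusted p = 0.0054) over stromal libraries. Slc27a3 made up 79.65% and 75.7% of the pair per transcript length in CD11b+ libraries and at most 9.345% in macrophage libraries. Slc27a3 lost its CD11b+ minus CD11b- call without CD103+ replicate 1 (adjusted p = 0.0525), CD11b+ replicate 1 (0.0833) or CD11b+ replicate 2 (0.087).

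A stricter question was which genes set a population apart from each of the other 4. Ductal macrophages were higher than every other population in 12 of the 112 genes, beside 2.53% of all tested genes and 5.10% of those at the same level: Slc26a11, Slc38a7, Slc29a3, Slc7a8, Slc25a33, Slc45a4, Slc8a1, Slc43a2, Slc35f6, Slc23a2, Slc38a10 and Slc15a3. Their smallest differences to the nearest population ran from 1.03 for Slc15a3 to 2.41 for Slc26a11. Slc26a11, Slc38a7, Slc25a33, Slc45a4 and Slc8a1 among them reached the level of 30 CPM in ductal macrophages only. Calls of such genes as higher there follow in part from how the genes were chosen. Of the 12, 5 carry amino acids or peptides, and Slc23a2 is the vitamin C importer SVCT2, at 156 and 141 CPM in ductal and at most 64.4 CPM in other libraries. Slc15a3, Slc38a10, Slc23a2, Slc8a1 and Slc35f6 lost this call without ductal replicate 1, and all of these but Slc35f6 also lost it without ductal replicate 2. Ductal macrophages were lower than every other population in 2 genes, Slc25a24 and Slc28a2, beside 1.18% of all tested genes and 2.19% of those at the same level. Slc28a2 lost that call without ductal replicate 1.

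Stromal macrophages were lower than every other population in 9 genes, beside 2.72% of all tested genes and 4.94% of those at the same level: Slc38a1, Slc1a5, Slc7a1, Slc39a11, Slc7a5, Slc12a9, Slc6a6, Slc35c2 and Slc30a1. Of these 9, 5 carry amino acids or taurine. The count was 5 without ductal replicate 2, 4 without stromal replicate 1 or CD11b+ replicate 2, and 3 without CD11b+ replicate 1, and Slc38a1 and Slc1a5 kept their calls in each left-out fit. Stromal macrophages were higher than every other population in 0 of the 112 genes by edgeR and in 0 by DESeq2, beside 1.99% of all tested genes and 3.37% of those at the same level by edgeR. In either direction, 20 of the 112 genes had an unadjusted p under 0.05, the 9 called lower among them, beside 2144 of 15681 tested genes.

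**Figure D4:**
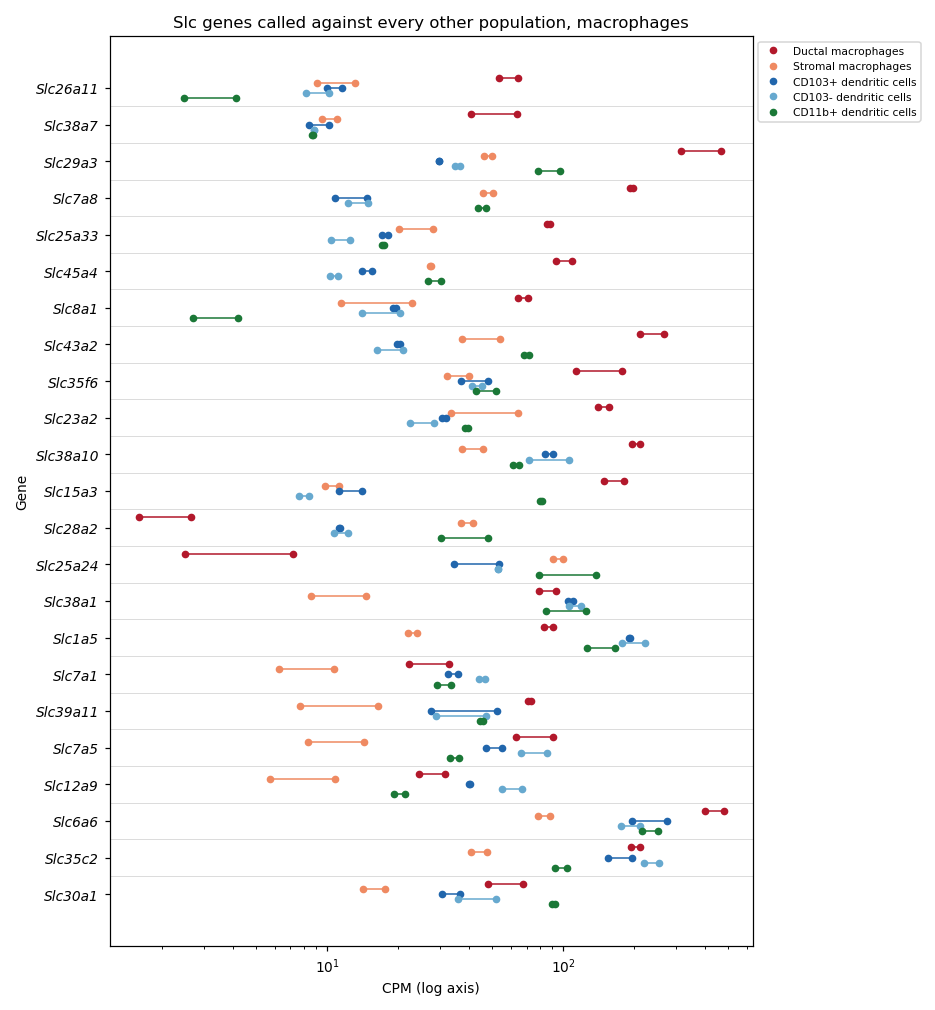
CPM (log axis) in each library, joined by a line within a population, for the genes called against every other population in ductal macrophages (top 14 rows, 12 higher and 2 lower) and in stromal macrophages (bottom 9 rows, all lower). Red points sit to the right of all others for the 12 genes, and orange points to the left of all others for the 9 genes.

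CD11b+ dendritic cells were higher than every other population in Slc9a4 and Slc13a3, beside 0.561% of all tested genes and 1.12% of those at the same level, and lower in Slc8a1, Slc12a7, Slc46a3 and Slc9a9, beside 0.230% and 0.466%. Slc9a4 and Slc13a3 reached the level of 30 CPM in CD11b+ cells only, so their calls as higher follow in part from how the genes were chosen. Each of these 6 calls was lost without at least 1 library. The count of higher genes was 0 without either ductal, either CD103+, either CD103- or either CD11b+ replicate, and the count of lower genes fell to 0 without CD103+ replicate 2 or without either CD11b+ replicate. As given above, their libraries overlapped ductal libraries in Slc7a11 and Slc49a4 and overlapped stromal libraries in Slc25a37 and Slc28a2, and likeness between populations was not tested. CD103+ and CD103- cells each had 0 of the 112 genes called against every other population by edgeR. Over all tested genes this was also 0, except 0.0255% called lower in CD103- cells (0.0565% of those at the same level). At an unadjusted p under 0.05 there were 1 and 2 of the 112 genes, beside 125 and 193 of 15681 tested genes.

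**Figure D5:**
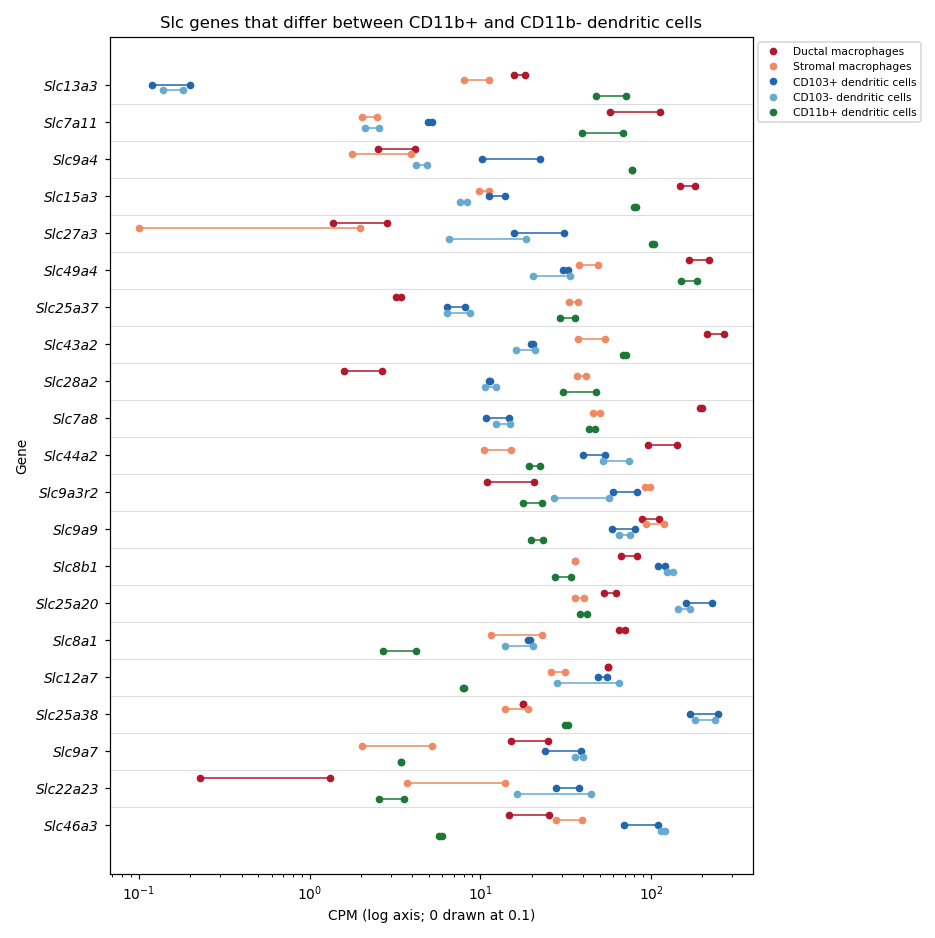
CPM (log axis, 0 drawn at 0.1) in each library for the genes named in the CD11b+ against CD11b- comparison, sorted by that log2 difference, with points joined within a population. Green points (CD11b+) lie to the right of blue points (CD103+ and CD103-) in the upper rows and to the left in the lower rows, from 8.46 for Slc13a3 to -4.13 for Slc46a3.

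Between CD103+ and CD103- dendritic cells, the count of called genes was 0 in each direction by edgeR, beside 0.0319% of all tested genes higher (0.0706% of those at the same level) and 0 lower. At an unadjusted p under 0.05 there were 10 of the 112 genes, beside 1000 of 15681 tested genes. DESeq2 called 2 genes higher in CD103+ cells, Slc4a8 and Slc9a4. Slc9a4 stood at 10.3 and 22.4 CPM in CD103+ and 4.90 and 4.21 CPM in CD103- libraries (1.84, adjusted p = 0.27 by edgeR). Slc4a8 stood at 25.1 and 72.6 CPM in CD103+ and 9.25 and 8.68 CPM in CD103- libraries (2.44, adjusted p = 0.22 by edgeR). As given above, Slc4a8 was selected through its level in CD103+ cells only. Slc12a2 (NKCC1), the sodium-potassium-chloride importer, stood at 227 and 250.1 CPM in CD103+ and 136 and 47.4 CPM in CD103- libraries, and edgeR called it higher in CD103+ cells without CD103- replicate 1 (adjusted p = 0.026). B cell markers summed to 33.7 and 279 CPM in those CD103- libraries and to at most 7.40 CPM in the CD103+ libraries, and their part was not tested. A p that misses the threshold does not show that both groups are alike.

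Transporters outside the Slc numbering were called higher in ductal macrophages more often than lower. Of 27 such carriers and partners, ductal minus stromal called 14 higher and 1 lower, beside the 16.3% and 14.3% of all tested genes. Without ductal replicate 1 these counts were 9 and 1, and without stromal replicate 1 they were 12 and 2. Abcc3, an ABC exporter of organic anions, stood at 249.9 and 171 CPM in ductal and 9.825 and 12.5 CPM in stromal libraries (4.24, SE 0.48, edgeR adjusted p = 8.8e-05). Abca1, which exports cholesterol, stood at 756 and 675 CPM in ductal and 154 and 88.4 CPM in stromal libraries (2.56, SE 0.42, edgeR adjusted p = 0.0011). Mfsd12, which imports cysteine into lysosomes, stood at 120.3 and 87.8 CPM in ductal and 15.5 and 7.68 CPM in stromal libraries (3.16, SE 0.35, edgeR adjusted p = 7.4e-05). Abcc1 was the gene that was lower, at 9.34 and 6.43 against 38.97 and 34.3 CPM (-2.22, SE 0.32, edgeR adjusted p = 0.00049).

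The level of 30 CPM, taken on unscaled library totals, cut through a continuous range. Just inside it were Slc25a37 (highest population mean 30.95 CPM), Slc43a3 (31.01), Slc38a9 (31.1), Slc66a1 (31.3) and Slc35b3 (31.6). Genes just outside included Slc39a3 (29.8), Slc10a3 (29.6) and Slc26a2 (29.55).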

How the data were processed

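Libraries were made with the TruSeq RNA kit from freshly sorted cells and sequenced as paired 80-base reads, per the labels' protocols. The deposited values are raw counts per gene, made by the authors with featureCounts on mm10, per the submitters' processing notes, with versions, annotation and strand setting not given in the sources used here. Entrez gene IDs were matched to symbols through RefSeq (25275 of 27179) or GENCODE (18); genes without a name took 0.3865% to 2.32% of counts. The 10 libraries held 5636092 to 23093742 counts, so 3 counts are worth 0.119 to 0.683 scaled CPM.

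Counts were fitted over all 5 populations with edgeR 4.0.16 (R 4.3.3, TMM scaling, filterByExpr, quasi-likelihood F test, 5 residual degrees of freedom, common biological coefficient of variation 0.333), with Benjamini-Hochberg adjustment over 15681 genes. Dendritic contrasts weight populations equally. A gene differs from every other population if all 4 pairwise tests point the same way, judged by the largest p. RPKM divides scaled CPM by the deposited gene length. Alternatives were DESeq2 1.42.0, other size factors, no filter, mitochondrially encoded genes left out, a replicate block and each library left out.

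The genes and lists were chosen with earlier results of these data known. Genes were named by rule: in each comparison up to 10 called genes per direction with the largest change, no overlap between sides and at least 30 CPM on the higher side; up to 5 per population and direction against every other population; the 3 most abundant per class; the 5 called genes with the smallest range; those nearest the level; and Slc3a2. Exceptions are marked. Coordinates are GENCODE vM21 on GRCm38, and 20 of the genes overlap another gene. Among these are Slc7a7 (with Oxa1l), Slc15a3 (Tmem132a), Slc25a11 (Rnf167), Slc31a1 (Fkbp15) and Slc66a1 (Akr7a5). Reads from such overlaps could not be told apart.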

Additional observations from a re-analysis of the deposited data

How the results depend on the processing

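No called difference of the 112 genes reversed under the 15 alternatives. Of 265 calls, 161 held under all of them and 104 were lost under at least 1 left-out library. DESeq2 lost 2 calls, RLE size factors 2, no filter 2, leaving out mitochondrially encoded genes 4 and the replicate block 15. Without a filter on low counts, CD103+ minus CD103- gave 3 genes higher, and by DESeq2 it gave 2, against 0. DESeq2 gave 20 genes above every other population in ductal macrophages (12 by edgeR) and 15 lower in stromal macrophages (9 by edgeR). CD11b+ cells had 1 gene higher than every other population, in place of 2, without mitochondrially encoded genes or with the replicate block, and the block left 1 gene lower in place of 4. Deviations of same-numbered libraries correlated at 0.102 to 0.126 between ductal, stromal and CD11b+ libraries and at 0.177 between CD103+ and CD103-, but at -0.176 to -0.124 in the 6 pairs across those sets, so the replicate block rests on a shared number only. A level of 50 CPM would keep 74 genes and 20 CPM would keep 134, against 112.

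With 1 library left out at a time, the lone library of a population was assumed to vary like the others. The range was 40 to 54 higher and 5 to 8 lower for ductal minus stromal, 31 to 55 and 8 to 18 for ductal minus dendritic, 18 to 25 and 34 to 37 for stromal minus dendritic, 15 to 27 and 11 to 25 for CD11b+ minus CD11b-, and 0 to 1 and 0 to 0 for CD103+ minus CD103-. Against every other population it was 7 to 15 higher and 1 to 2 lower in ductal, 0 to 0 higher and 3 to 12 lower in stromal, and 0 to 2 higher and 0 to 3 lower in CD11b+ cells. Membership ranged from 110 to 116 genes. Without a filter on low counts the median of all genes for ductal minus dendritic was -0.29 against -0.09, while that of the 112 genes was 0.56 against 0.57. The ductal libraries and CD11b+ replicate 2 are the shallowest, and low values there carry the most counting error.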
